A study of Mus musculus with 2 samples.

Results

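The genes described here are 8 genes of the core and primed-state pluripotency network of mouse embryonic stem cells (mESCs): Pou5f1, Nanog, Sall4, Lin28a, Utf1, Dppa4, Dppa2 and Trim28. They were taken as a list of names, drawn up with earlier results of these data known, and were 8 of 22359 protein-coding genes of the mm9 annotation. Each was followed in steps of 500 bases from 10 kb upstream of the transcription start site (TSS) to 5 kb past the gene end, so that upstream regions and gene bodies were covered.

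Chromatin of wild type mESCs (genotype wt, 129P2/OlaHsd background, E14, passage 26) was precipitated with an antibody against Msl1 or against Nsl1, and the DNA was sequenced. These are male cells kept in serum with LIF on feeders, with a last feeder-free passage. With 1 library per antibody there are no replicates, no test between the antibodies was possible, and every interval below is an exact 95% interval that covers counting error only. Keeping 1 read per position and strand left 19483142 Msl1 reads and 24883001 Nsl1 reads.

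Msl1 is the scaffold of the MSL complex and Nsl1 of the NSL complex, both of which carry the acetyltransferase Mof that acetylates lysine 16 of histone H4. In mESCs Oct4, the product of Pou5f1, acts with Sox2 on enhancers where an Oct site lies next to a Sox site, and its own gene and Nanog carry such elements. Utf1 is a target of the same pair of factors through an enhancer downstream of the gene.

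The sequences below are shown because each holds a match to a known motif of these factors where the 2 antibodies were compared. The motifs searched on both strands were the joined Sox and Oct sites TTGTNATGC and the octamer ATGCAAAT, and capitals mark the matches, which appear as their reverse complement where they lie on the other strand. The first sequence is the stretch of 300 bases with the most Nsl1 reads between 10 and 1 kb upstream of Pou5f1, and the second is the 250 bases before the TSS of Nanog, which hold a joined match.
Pou5f1, chr17:35640872-35641171, plus strand: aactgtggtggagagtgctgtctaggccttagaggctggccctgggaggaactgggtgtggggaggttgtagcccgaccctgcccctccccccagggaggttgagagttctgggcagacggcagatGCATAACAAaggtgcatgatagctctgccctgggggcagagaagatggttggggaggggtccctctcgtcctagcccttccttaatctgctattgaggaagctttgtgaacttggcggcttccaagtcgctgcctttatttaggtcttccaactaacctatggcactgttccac
Nanog, chr6:122657336-122657585, plus strand: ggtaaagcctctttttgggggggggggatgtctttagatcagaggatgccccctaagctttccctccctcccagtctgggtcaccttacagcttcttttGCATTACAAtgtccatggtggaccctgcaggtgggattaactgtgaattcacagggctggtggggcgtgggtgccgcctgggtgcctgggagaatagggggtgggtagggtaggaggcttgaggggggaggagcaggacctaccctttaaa
Of all 22359 promoters of this length 0.577% held a joined match and 1.61% an octamer. Of 670760 windows of 300 bases between 10 and 1 kb upstream of all genes, 0.742% held a joined match and 1.98% an octamer. A match says only that these letters are there.

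Msl1 was high just downstream of the TSS at all 8 genes, and Nsl1 had lower ratios there. Reads were divided by the local level, which is the reads per kb of the same library from 20 to 100 kb upstream of the TSS and past the gene end. From 500 to 2000 bases downstream the Msl1 ratio was at least 3 at 8 of 8 genes, against 14.4% of all genes, with a median of 4.66 against 1.52 over all genes. The Nsl1 ratio in the same stretch lay between 0.95 and 1.83, with 0 of 8 genes at 3 or more, against 1.11% of all genes, so this count does not set the 8 genes apart. The Nsl1 median was 1.41 against 1.16 over all genes. This stretch was chosen after the profiles had been seen, and the genes with earlier results known, so these counts describe the 8 genes and are no independent support. More cells with the protein bound and more protein per cell cannot be told apart in such libraries. Per base at which a read of this length is unique, Lin28a was at 2.81 and the other 7 genes stayed at 3 or more. Unique bases were counted around the 8 genes only, so no share or rank over all genes given here is per unique base.

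**Figure D1:**
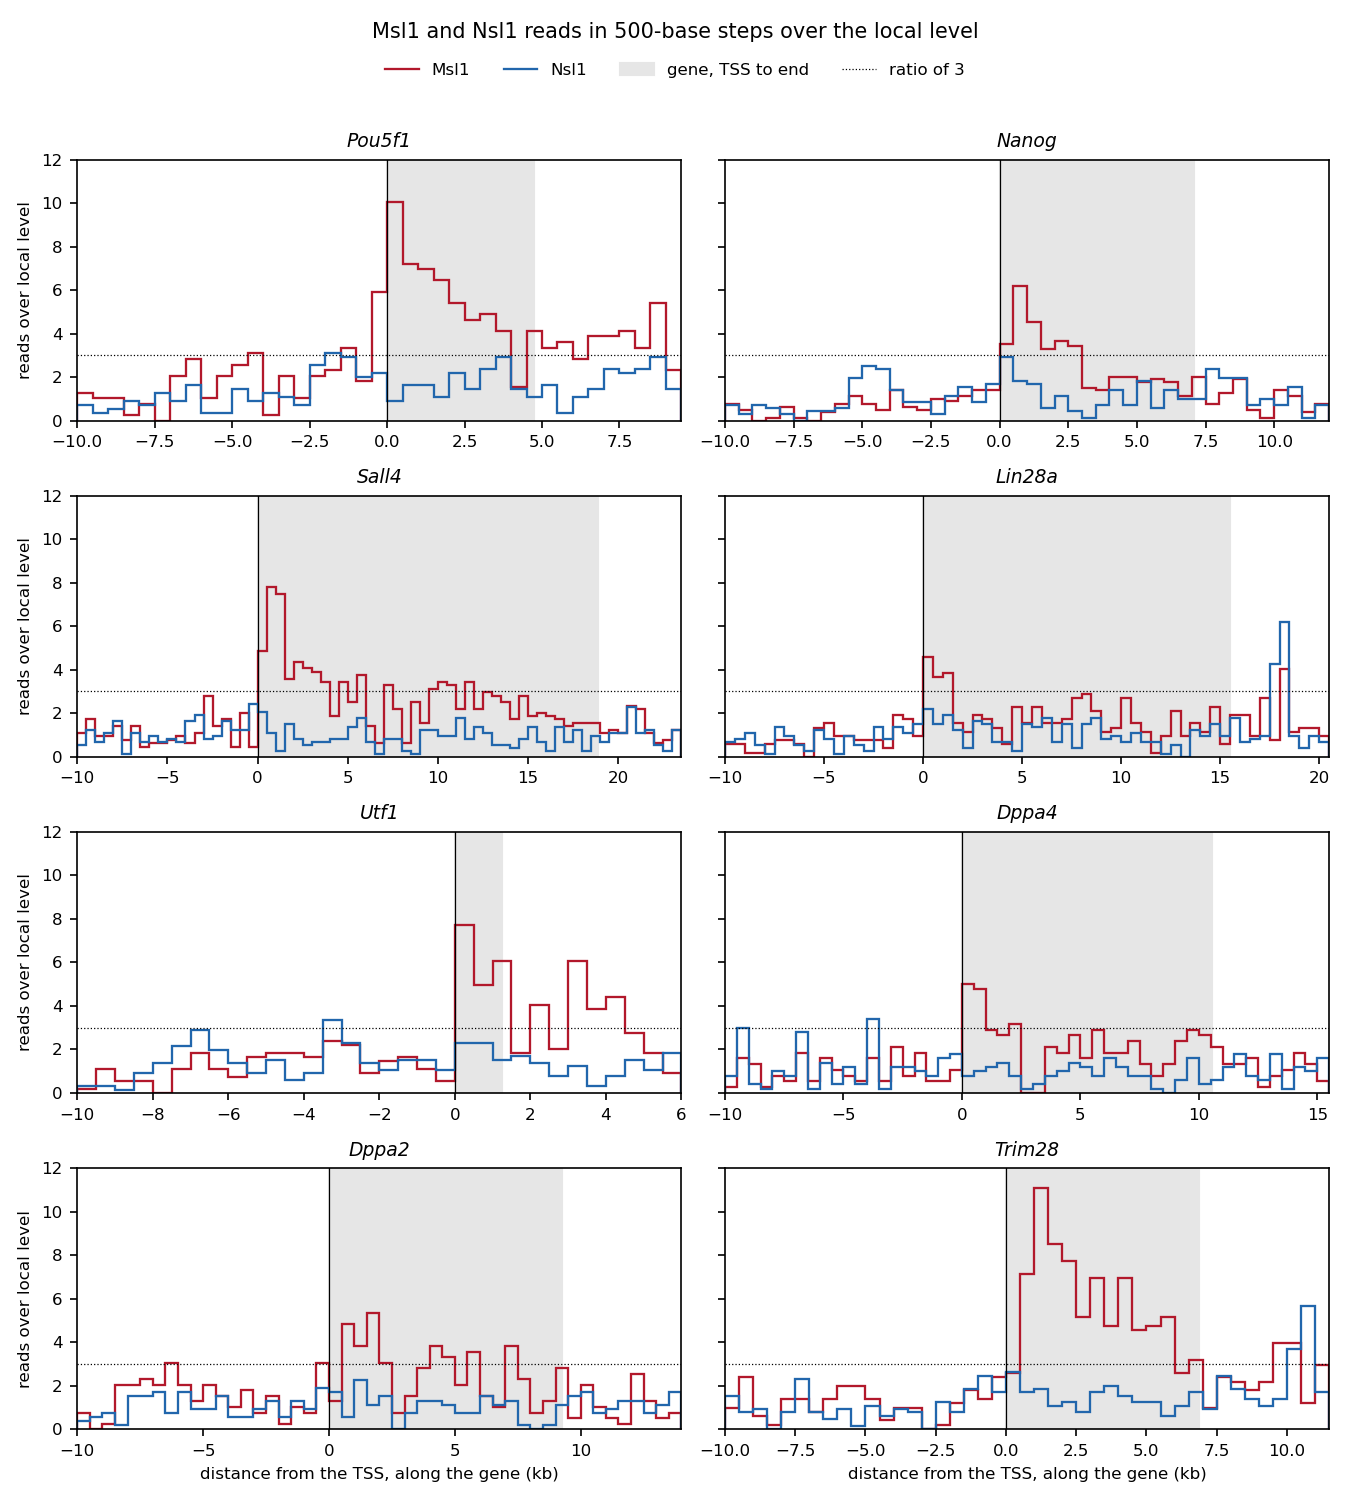
Reads in steps of 500 bases divided by the local level of the same library (y axis) against the distance from the TSS along the gene in kb (x axis), for Msl1 (red) and Nsl1 (blue); grey marks the gene from TSS to end and the dotted line a ratio of 3. The highest Msl1 step lay within 2000 bases downstream of the TSS at all 8 genes, and the highest Nsl1 steps, near the ends of the Lin28a and Trim28 panels, lay at the TSSs of Dhdds and Chmp2a.

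Pou5f1 encodes Oct4, the POU factor that the pluripotent state depends on. Its TSS lies at chr17:35642982 on the plus strand, and the gene has 5 exons over 4740 bases. Within 500 bases of the TSS there were 62 Msl1 reads, a ratio of 7.99 (6.12 to 10.2), and 17 Nsl1 reads, a ratio of 1.55 (0.905 to 2.49). This was the highest Msl1 ratio at a TSS among the 8 genes and lay above 99.3% of all genes. Of the positions behind the local level of Pou5f1, 65.2% were unique for a Msl1 read and 60.0% for a Nsl1 read, against 82.3% or more at the other genes. Per unique base the Msl1 ratio at the TSS was 5.21 (4.0 to 6.68) and that of Nsl1 0.944 (0.550 to 1.51), and the rank among all genes belongs to 7.99 only.

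Msl1 stayed high through Pou5f1 and past its end. The first 500 bases, of which 447 are exon 1, held 39 Msl1 reads, a ratio of 10.1 (7.15 to 13.7). From 500 to 2000 bases the ratio was 6.87 (5.45 to 8.55), from 2000 bases to the gene end 3.90 (3.11 to 4.84), and over the 5 kb past the gene end 3.79 (3.20 to 4.45). Per unique base these were 4.48 (3.55 to 5.58), 3.07 (2.45 to 3.81) and 2.60 (2.19 to 3.05). In the same stretches Nsl1 was at 1.46 (0.937 to 2.18), 1.93 (1.47 to 2.50) and 1.81 (1.47 to 2.20). Its values per unique base were 0.877 (0.562 to 1.305), 1.47 (1.12 to 1.90) and 1.18 (0.961 to 1.44). In all 19 of 39 Msl1 steps were at 3 or more, against 1 of 39 Nsl1 steps. Per unique base it was 10 of 39 Msl1 steps and 0 Nsl1 steps, and Trim28, with 13 of 43, then had the larger share for Msl1. The minus-strand gene Tcf19 overlaps the stretch from 6697 to 10787 bases downstream of the Pou5f1 TSS, so the Msl1 reads past the end of Pou5f1 lay in part over that gene.

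Upstream of Pou5f1 the intervals of the antibodies overlapped in each stretch compared. From 10 to 5 kb before the TSS Msl1 was at 1.24 (0.912 to 1.64) and Nsl1 at 0.786 (0.569 to 1.06), and from 5 to 1 kb they were at 2.09 (1.62 to 2.67) and 1.76 (1.39 to 2.20). The 300 bases printed above, 2110 to 1811 bases before the TSS, held 19 Nsl1 reads, a ratio of 5.79 (3.48 to 9.04), and 3 Msl1 reads, a ratio of 1.29 (0.266 to 3.77). Within 250 bases of the joined match at 1980 bases upstream there were 25 Nsl1 reads, a ratio of 4.57 (2.96 to 6.74), and 7 Msl1 reads, a ratio of 1.8 (0.725 to 3.72). The window around the match contains the 300 bases, which were picked for their Nsl1 reads. The higher Nsl1 ratio in each is therefore not a separate comparison. Per unique base the match was at 2.74 (1.77 to 4.05) for Nsl1, under 3, and at 1.18 (0.473 to 2.42) for Msl1. This place is in the known distal enhancer region of the gene. The 300 bases were picked as the highest of their kind, and when the same pick was made at every gene the median ratio was 3.04 and 92.3% of genes lay under 5.79. Per unique base the Nsl1 ratio of these 300 bases was 3.47 (2.09 to 5.42), to which this rank does not apply.

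Nanog, the homeodomain factor of the same network, had more Msl1 reads per base downstream of the TSS than at it. Its TSS lies at chr6:122657586 on the plus strand, with 4 exons over 7066 bases. Its local level was itself high, at 2.08 times the genome level of the library for Msl1 and 1.47 times for Nsl1, which lowers every ratio given for this gene. Within 500 bases there were 39 Msl1 reads, a ratio of 2.46 (1.75 to 3.36), and 33 Nsl1 reads, a ratio of 2.31 (1.59 to 3.25), so the intervals of the antibodies overlapped. This Msl1 ratio stood above 63.9% of all genes, and over the genome level it was 5.12 (3.64 to 7.0), with Nsl1 at 3.39 (2.34 to 4.77). From 500 to 2000 bases downstream there were 111 Msl1 reads, a ratio of 4.67 (3.84 to 5.62), and 29 Nsl1 reads, a ratio of 1.36 (0.908 to 1.95). The highest Msl1 step, with 49 reads and a ratio of 6.18 (4.57 to 8.17), lay from 500 to 1000 bases, in intron 1. Msl1 was at 2.05 (1.75 to 2.39) from 2000 bases to the gene end and at 0.997 (0.789 to 1.24) past it.

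Upstream of Nanog both antibodies were under the local level from 10 to 5 kb, with 35 Msl1 reads at 0.442 (0.308 to 0.614) and 42 Nsl1 reads at 0.589 (0.425 to 0.796). At 7.0 and 8.4 reads per kb this stretch was near the genome levels of 7.62 for Msl1 and 9.73 for Nsl1. Of its positions 70.6% were unique for a Msl1 read and 60.9% for a Nsl1 read, and the pseudogene Gm10224 lies in it. Per unique base Msl1 was at 0.586 (0.408 to 0.815) and Nsl1 at 0.865 (0.624 to 1.17), an interval that held 1. The highest Nsl1 step upstream, from 5000 to 4500 bases before the TSS, had 18 reads and a ratio of 2.52 (1.5 to 3.99). No joined match and no octamer lay in the 300 bases with the most Nsl1 reads there, whose ratio of 3.04 stood above 50% of genes under the same pick. At the joined match of the promoter, 147 bases upstream and printed above, Nsl1 had 18 reads within 250 bases, a ratio of 2.52 (1.5 to 3.99), and Msl1 8 reads, a ratio of 1.01 (0.436 to 1.99). A second joined match, 1010 bases downstream, had 41 Msl1 reads, a ratio of 5.17 (3.71 to 7.02), and 16 Nsl1 reads, a ratio of 2.24 (1.28 to 3.64). At the match before the start Nsl1 had the higher ratio, with intervals that overlapped, and at the match inside the gene Msl1 had it, with intervals that did not.

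**Figure D2:**
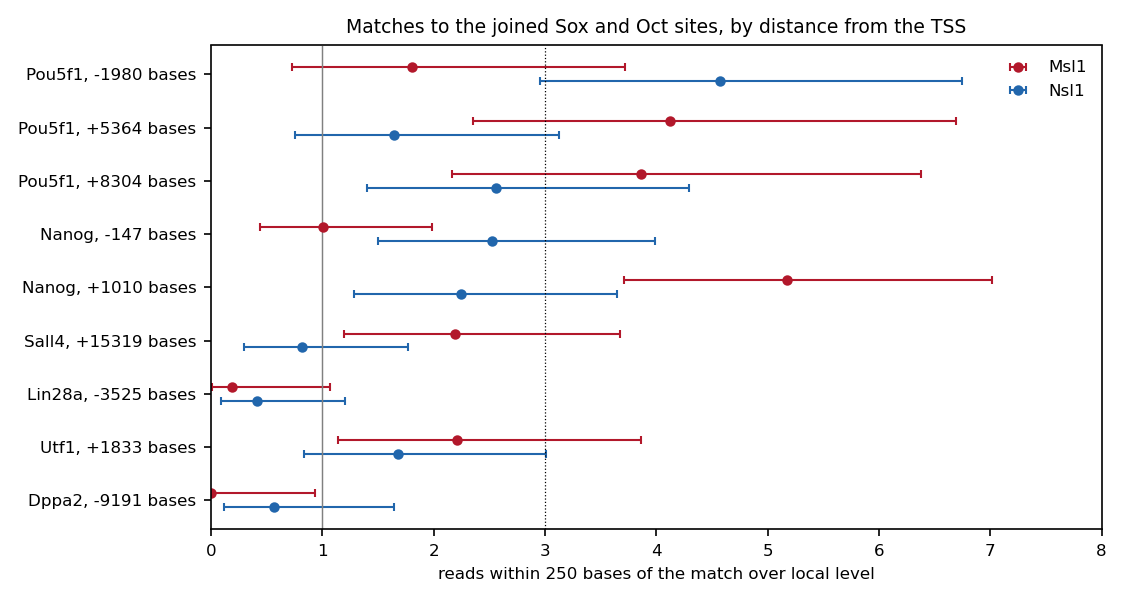
Reads within 250 bases of the 9 described matches to the joined Sox and Oct sites over the local level (x axis) for Msl1 (red) and Nsl1 (blue), by gene and distance from the TSS in bases (y axis); bars are 95% Poisson intervals, the grey line is a ratio of 1 and the dotted line a ratio of 3. Nsl1 is above Msl1 at the 4 of these matches before a TSS (Pou5f1, Nanog, Lin28a and Dppa2) and Msl1 is above Nsl1 at those downstream, with overlapping intervals at all but the downstream match of Nanog. Those of Lin28a and Dppa2 before the TSS rest on 3 Nsl1 reads each, and that of Pou5f1 lies in the stretch picked for its Nsl1 reads. Neither matches at all genes nor places without a match were counted, so this split does not set the matches apart.

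Of the 9 joined matches described here, the one upstream of Pou5f1 was the only one with an Nsl1 ratio of 3 or more, and per unique base none was. Upstream of Lin28a and Dppa2 each match had 3 Nsl1 reads and at most 1 Msl1 read. At the match 1833 bases downstream of the Utf1 TSS, past the end of that gene, Msl1 was at 2.21 (1.14 to 3.86) and Nsl1 at 1.68 (0.839 to 3.01).

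Sall4 encodes a zinc finger factor that works with Oct4 and Nanog. Its TSS lies at chr2:168592701 on the minus strand, with 4 exons over 18870 bases, and the lincRNA gene Gm14261 runs across the TSS on the other strand. Within 500 bases there were 34 Msl1 reads, a ratio of 2.66 (1.84 to 3.71), and 33 Nsl1 reads, a ratio of 2.24 (1.54 to 3.15). Over the genome level these ratios were 4.47 (3.09 to 6.24) and 3.39 (2.34 to 4.77), the local level being 1.68 and 1.52 times as high. Between 500 and 2000 bases downstream there were 121 Msl1 reads, a ratio of 6.30 (5.23 to 7.53), and 21 Nsl1 reads, a ratio of 0.95 (0.588 to 1.45). The step from 500 to 1000 bases, in intron 1, had 50 Msl1 reads and a ratio of 7.81 (5.80 to 10.3). Further along, the ratio from 2000 bases to the gene end was 2.47 (2.26 to 2.69) for Msl1 and 0.849 (0.738 to 0.972) for Nsl1. Msl1 steps at 3 or more were scattered through the gene up to 12000 bases downstream. The steps from 9500 to 11000 bases were at 3.13 (1.91 to 4.83), 3.44 (2.15 to 5.20) and 3.28 (2.03 to 5.02). These intervals held the 2.47 of the stretch. In all 15 of 67 Msl1 steps and 0 of 67 Nsl1 steps were at 3 or more.

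Trim28 encodes the corepressor that KRAB zinc finger proteins recruit, and had the highest Msl1 ratio inside the gene. Its TSS lies at chr7:13609501 on the plus strand, with 17 exons over 6884 bases. Within 500 bases there were 25 Msl1 reads, a ratio of 2.47 (1.60 to 3.65), and 28 Nsl1 reads, a ratio of 2.15 (1.43 to 3.10). From 500 to 2000 bases downstream there were 135 Msl1 reads, a ratio of 8.90 (7.46 to 10.5), against 30 Nsl1 reads at 1.53 (1.03 to 2.19). The step from 1000 to 1500 bases, whose middle lies in exon 2, held 56 Msl1 reads, a ratio of 11.1 (8.37 to 14.4), the highest step of the 8 genes. Msl1 stayed at 5.20 (4.59 to 5.88) from 2000 bases to the gene end, where Nsl1 was at 1.32 (1.05 to 1.63).

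Utf1 encodes a chromatin-bound protein of undifferentiated cells and is the shortest of the genes, with 2 exons over 1257 bases. Its TSS lies at chr7:147129755 on the plus strand. Within 500 bases there were 45 Msl1 reads, a ratio of 4.14 (3.02 to 5.54), and 22 Nsl1 reads, a ratio of 1.68 (1.05 to 2.55). The first 500 bases, in exon 1, held 42 of the Msl1 reads, a ratio of 7.73 (5.57 to 10.5). The Msl1 reads went on past this short gene, with 169 reads over the next 5 kb, a ratio of 3.11 (2.66 to 3.62), against 80 Nsl1 reads at 1.22 (0.969 to 1.52).

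Upstream of Utf1 lies the end of Kndc1, which covers the bases from 2319 upstream and beyond. The highest Nsl1 step upstream, from 3500 to 3000 bases before the TSS, had 22 reads, a ratio of 3.36 (2.11 to 5.09). The 300 bases with the most Nsl1 reads, 7160 to 6861 bases upstream, had 19 reads, a ratio of 4.84 (2.91 to 7.56), and stood above 87.9% of genes under the same pick. They hold an octamer, shown here with 8 bases on each side because it is the only octamer in such a window among the 8 genes.
Utf1, chr7:147122759-147122766, plus strand: caacggccATGCAAATcctgggcg
Msl1 had 6 reads in these 300 bases, a ratio of 1.84 (0.676 to 4.01), and the intervals of the antibodies overlapped.

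Lin28a encodes an RNA-binding protein that blocks the processing of let-7 and marks the primed state as well as mESCs. Its TSS lies at chr4:133574756 on the minus strand, with 4 exons over 15512 bases, and the lincRNA gene Gm13061 runs across it on the other strand. Within 500 bases there were 29 Msl1 reads, a ratio of 2.78 (1.86 to 3.99), and 27 Nsl1 reads, a ratio of 1.86 (1.22 to 2.70). Over the bases from 500 to 2000 there were 47 Msl1 reads, a ratio of 3.0 (2.21 to 3.99), and 34 Nsl1 reads, a ratio of 1.56 (1.08 to 2.18), the lowest Msl1 ratio of the 8 genes in this stretch. Only 4 of 61 Msl1 steps were at 3 or more.

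Dppa4 and Dppa2 are neighbouring paralogs with a SAP domain that act together at genes of the early embryo. The Dppa4 TSS lies at chr16:48283848 and the Dppa2 TSS at chr16:48310590, both on the plus strand and both with 7 exons, and each gene lies partly within the local level of the other. At the Dppa4 TSS there were 23 Msl1 reads, a ratio of 3.04 (1.93 to 4.57), and 13 Nsl1 reads, a ratio of 1.30 (0.691 to 2.22). At the Dppa2 TSS there were 17 Msl1 reads, a ratio of 2.16 (1.26 to 3.45), and 19 Nsl1 reads, a ratio of 1.78 (1.07 to 2.78).

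From 500 to 2000 bases downstream the Msl1 intervals of the paralogs overlapped. Over this stretch Dppa4 had 39 Msl1 reads at 3.44 (2.45 to 4.70) and Dppa2 had 55 at 4.65 (3.51 to 6.06). Nsl1 there was at 1.20 (0.710 to 1.89) for Dppa4 and 1.31 (0.811 to 2.0) for Dppa2. The highest Msl1 step of Dppa4 was the first after the TSS, with 19 reads and a ratio of 5.03 (3.03 to 7.85), and that of Dppa2 lay from 1500 to 2000 bases, in intron 2, with 21 reads and a ratio of 5.33 (3.30 to 8.15). In all 3 of 51 Dppa4 steps and 10 of 48 Dppa2 steps were at 3 or more for Msl1. Per unique base it was 3 of 51 and 7 of 48. Upstream of Dppa4 the step from 4000 to 3500 bases before the TSS had 17 Nsl1 reads, a ratio of 3.40 (1.98 to 5.44).

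**Figure D3:**
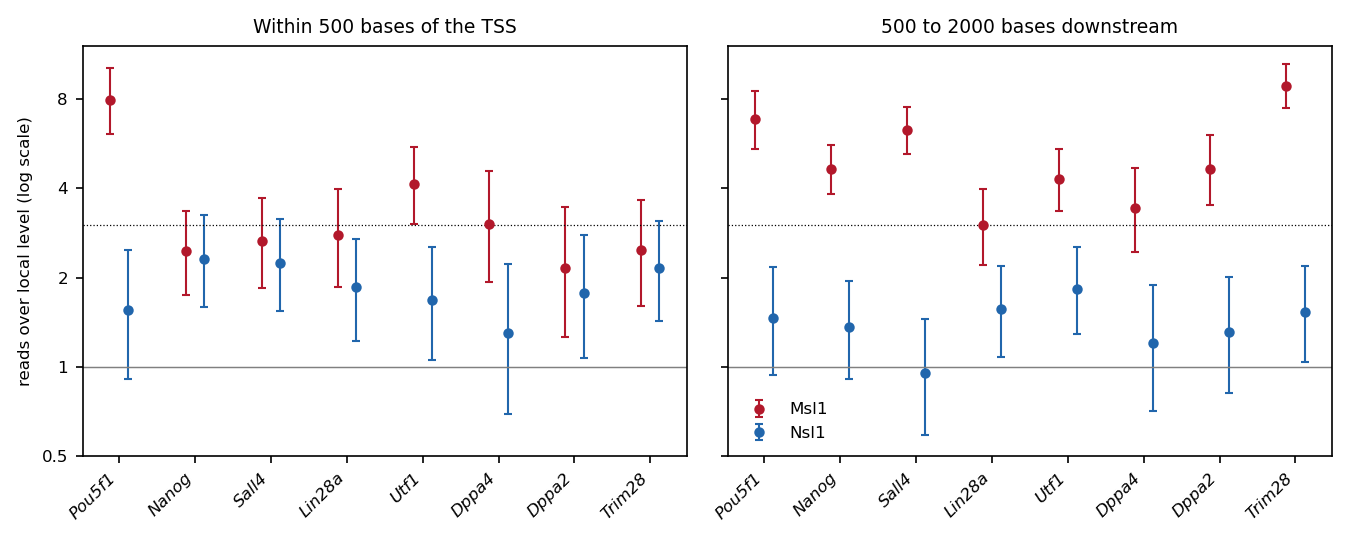
Reads over the local level (y axis, log scale) for the 8 genes within 500 bases of the TSS (left) and from 500 to 2000 bases downstream (right), for Msl1 (red) and Nsl1 (blue); bars are 95% Poisson intervals and the dotted line marks a ratio of 3. At the TSS the intervals of the antibodies overlap at all genes but Pou5f1 and Utf1. From 500 to 2000 bases they overlap at none of the 8. At Lin28a they nearly touch, from 2.21 for Msl1 and up to 2.18 for Nsl1, and they leave out the error of the local level. Overlap was not counted over all genes, so these counts do not set the 8 genes apart.

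At the TSS itself the 8 genes were closer to the other genes. A Msl1 ratio of at least 3 was reached by 3 of 8 genes (Pou5f1, Utf1 and Dppa4), against 25.6% of all genes, with a median of 2.72 against 1.88. Dppa4 was at 2.97 per unique base and so lost this call. It also lost it with repeated reads kept, at 2.81, with a level from 5 to 50 kb, at 2.55, and with reads moved by 50 bases, at 2.91. With repeated reads kept Lin28a passed in its place, at 3.06 (2.16 to 4.20). For Nsl1 it was 0 of 8 against 24.2%, with a median of 1.82 against 1.72. In a narrower window, within 250 bases of the TSS, the Nsl1 ratio fell at Dppa4 and Dppa2 and rose at the other genes. It reached 3 at Nanog, with 3.37 (2.16 to 5.01), and at Sall4, with 3.39 (2.20 to 5.01). These were 2 of 8 genes at 3 or more, against 29.1% of all genes. In this narrow window Nsl1 was above Msl1 at 3 genes, with overlapping intervals: Msl1 was at 1.64 (0.873 to 2.80) at Nanog and 1.88 (0.969 to 3.28) at Sall4, and Trim28 was at 1.58 for Msl1 and 2.30 for Nsl1. Here Msl1 was at 3 or more at 2 of 8 genes (Pou5f1 and Utf1), against 20.6%.

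The place of the Msl1 reads relative to the TSS differed between the genes. The Msl1 reads per base from 500 to 2000 bases, over those within 500 bases of the TSS, came to 3.6 (2.34 to 5.76) at Trim28, 2.37 (1.61 to 3.58) at Sall4, 2.16 (1.23 to 3.96) at Dppa2 and 1.90 (1.31 to 2.81) at Nanog. The remaining genes had ratios near 1, from 0.860 (0.610 to 1.22) at Pou5f1 to 1.13 (0.659 to 1.98) at Dppa4, with intervals that held 1. For Nsl1 the same ratio was under 1 at 7 of 8 genes. It was lowest at Sall4 with 0.424 (0.233 to 0.755) and Nanog with 0.586 (0.343 to 0.995), whose intervals lay under 1. At Nanog 83.2% of positions from 500 to 2000 bases were unique for a Nsl1 read and 100% at the TSS. This lowers its ratio. Per unique base Nsl1 at Nanog was at 1.46 (0.976 to 2.09) from 500 to 2000 bases and at 2.07 (1.425 to 2.91) at the TSS, with intervals that overlapped. The interval of the Nanog ratio was not computed per unique base, so its place under 1 holds per base only. Neither the Msl1 nor the Nsl1 ratio was computed over all genes, so these values do not set the 8 genes apart. At Trim28 the intervals of Msl1 and Nsl1 were 2.34 to 5.76 and 0.412 to 1.24, so they did not overlap. Those of Sall4 and Nanog did not overlap either.

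**Figure D4:**
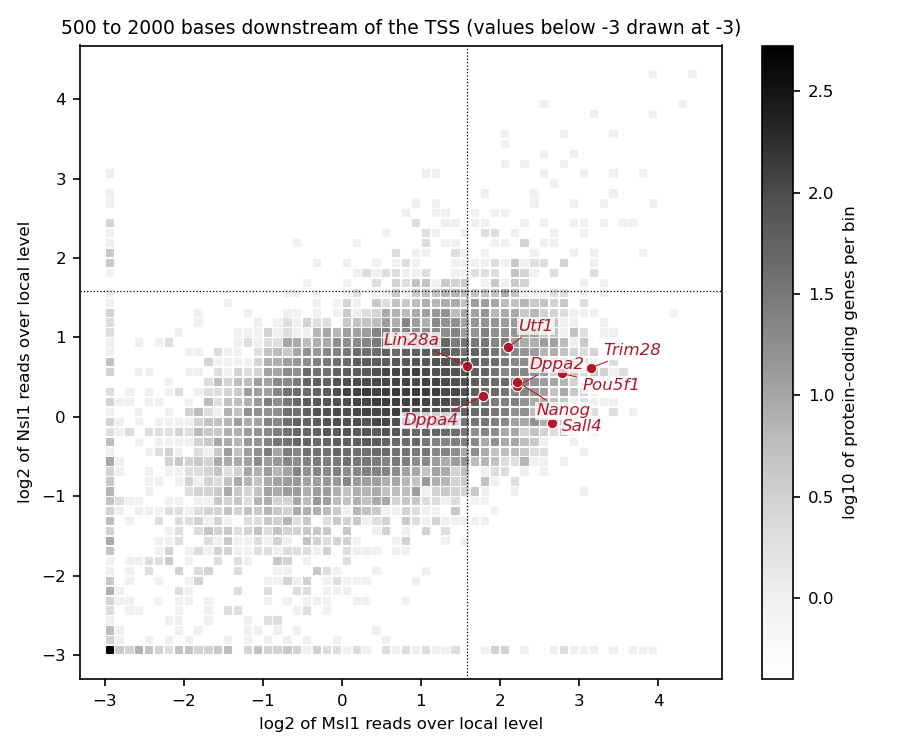
Log2 of Msl1 reads (x axis) and of Nsl1 reads (y axis) from 500 to 2000 bases downstream of the TSS over the local level, with all protein-coding genes as grey bins, shaded by the log10 of their number, and the 8 genes as red points; dotted lines mark a ratio of 3. The 8 genes lie at or to the right of the vertical line and under the horizontal one.

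Gene body steps, from 1 kb downstream of the TSS to 5 kb past the gene end, were at 3 or more for Msl1 at 8 of 8 genes, against 42.7% of all genes and 36.1% of genes between 1257 and 18870 bases long, the lengths of the shortest and the longest of the 8. At Utf1 the steps lay across or past the gene end. For Nsl1 it was 2 of 8 genes (Lin28a and Trim28), against 26.4% of all genes and 20.8% of genes of these lengths. These genes had 2 such Nsl1 steps each, side by side past the gene end and at the TSS of another gene. At Lin28a the step with 31 reads, a ratio of 4.27 (2.90 to 6.06), holds the TSS of Dhdds, 17970 bases downstream of the Lin28a TSS, and the next step had 45 reads, a ratio of 6.19 (4.52 to 8.29). At Trim28 the step with 37 reads, a ratio of 5.67 (3.99 to 7.82), holds the TSS of Chmp2a, 10625 bases downstream, and the step before it had 24 reads, a ratio of 3.68 (2.36 to 5.47). Of steps that end within the gene, 0 had an Nsl1 ratio of 3 or more.

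Upstream steps, between 10 and 1 kb before the TSS, were at 3 or more for Msl1 at 2 of 8 genes (Pou5f1 and Dppa2), against 22.5% of all genes. For Nsl1 it was 3 of 8 genes (Pou5f1, Utf1 and Dppa4), against 16.3%. These steps held at most 22 reads, and per unique base none of them stayed at 3 or more in either library. Over the 385 steps of the 8 genes, 78 were at 3 or more for Msl1, 7 for Nsl1 and 2 for both. The 2 shared steps lay at the ends of the Lin28a and Trim28 regions. Of the Msl1 steps, 8 at Pou5f1, 5 at Utf1, 3 at Trim28 and 1 at Lin28a lay past or across the gene end. Shares of steps were not computed over all genes, so these counts and those of each gene do not set the 8 genes apart. The reads of the libraries in the same steps had Pearson's r from 0.016 at Sall4, over 67 steps, to 0.470 at Lin28a, over 61 steps. Neighbouring steps share base composition, so these values are a description.

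Msl1 and Nsl1 reads within 2 kb of the TSS were set against each other as shares of their libraries. The libraries differ in kit (NEXTFlex for Msl1, NEBNext for Nsl1) and in read length (50 and 36 bases), which cannot be told apart from the antibody. Msl1 had at least 2 times the Nsl1 reads at 5 of 8 genes, against 13.2% of the 14632 genes with at least 100 reads. The order was Sall4 with 182 and 84 reads at 2.77 (2.13 to 3.63), Nanog with 177 and 87 at 2.60 (2.0 to 3.40), Pou5f1 with 171 and 85 at 2.57 (1.97 to 3.37), Trim28 with 182 and 91 at 2.55 (1.98 to 3.32) and Utf1 with 138 and 85 at 2.07 (1.57 to 2.75). Below 2 were Dppa4 with 73 and 48 reads at 1.94 (1.33 to 2.86), Dppa2 with 80 and 55 at 1.86 (1.30 to 2.67) and Lin28a with 97 and 85 at 1.46 (1.08 to 1.97). Each interval overlapped that of its neighbour in this order, and that of Lin28a ended under those of Sall4, Nanog and, narrowly, Trim28.

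**Figure D5:**
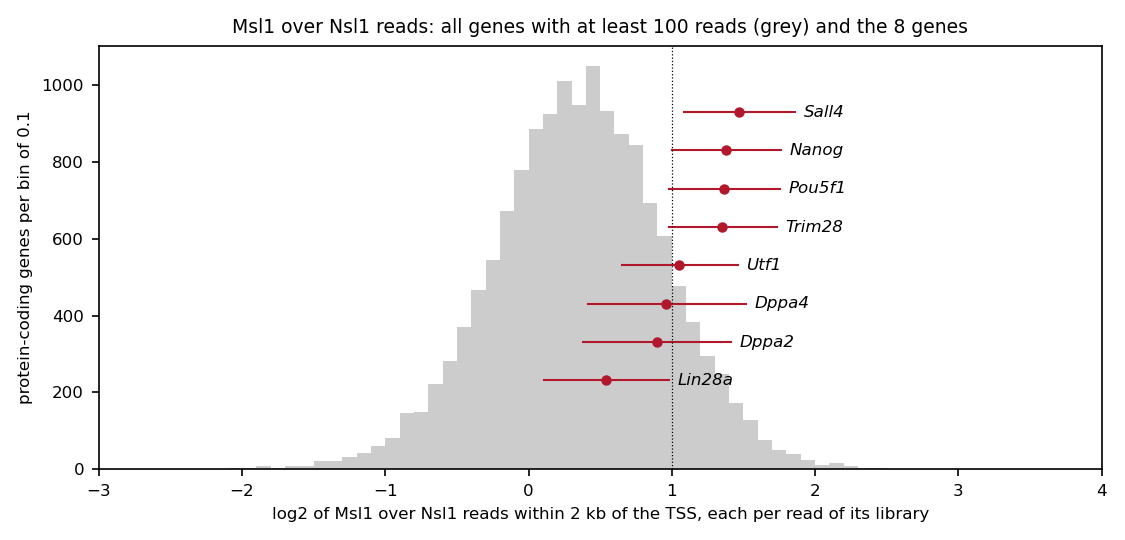
Log2 of Msl1 over Nsl1 reads within 2 kb of the TSS, each per read of its library (x axis), with the number of protein-coding genes with at least 100 reads per bin in grey (y axis) and the 8 genes as red points with 95% intervals, at heights chosen only to separate them; the dotted line marks a ratio of 2. The 8 genes lie between ratios of 1.46 and 2.77, to the right of the grey maximum.

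The qPCR amplicons that the study designed at these genes were placed on mm9 by their primers. The amplicon named for the Oct4 TSS lies at chr17:35643329-35643477, with its middle in exon 1, 421 bases downstream of the TSS used here, and its end past that exon, with 68 Msl1 reads within 500 bases of its middle, a ratio of 8.76 (6.80 to 11.1), and 11 Nsl1 reads, a ratio of 1.01 (0.502 to 1.8). The Oct4 gene body amplicon, at chr17:35644502-35644657 in intron 1, had 57 Msl1 reads, a ratio of 7.34 (5.56 to 9.51), and 14 Nsl1 reads, a ratio of 1.28 (0.699 to 2.15). The Nanog TSS amplicon, at chr6:122657456-122657605, had 36 Msl1 reads, a ratio of 2.27 (1.59 to 3.14), and 35 Nsl1 reads, a ratio of 2.45 (1.71 to 3.41). At Pou5f1 the antibodies thus stood apart at both amplicons, and at the Nanog TSS amplicon they did not. The Pou5f1 ratios given here are not per unique base. Of the positions behind its local level 65.2% were unique for a Msl1 read and 60.0% for a Nsl1 read, which raises these ratios.

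The base composition of the 8 TSS regions was mixed. The observed over expected CpG ratio within 500 bases of the TSS was high at Trim28 with 0.946, Sall4 with 0.831 and Utf1 with 0.817, against a median of 0.554 over all genes. It was low at Nanog with 0.310, Dppa2 with 0.328, Pou5f1 with 0.335, Lin28a with 0.385 and Dppa4 with 0.389. Msl1 ratios of at least 3 downstream of the TSS were thus found with CpG-rich and with CpG-poor starts.

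Other genes of the pluripotent and later states were counted in the same way, beside shares of all genes of 25.6% at the TSS and 42.7% in gene body steps for Msl1, and of 24.2% and 26.4% for Nsl1. Among 16 naive pluripotency genes, Msl1 was at 3 or more at the TSS of 9 and in a gene body step of 15, while Nsl1 was at 3 or more at the TSS of 0 and in a gene body step of 6. Among 8 epiblast genes the counts were 5 and 7 for Msl1 and 0 and 1 for Nsl1, and among 12 neural lineage genes they were 3 and 8 for Msl1 and 0 and 4 for Nsl1. The 10 markers of fibroblasts, the kind of cell used as feeders, had counts of 0 and 4 for Msl1 and 0 and 1 for Nsl1. The median Msl1 ratio at the TSS was 3.28 for the naive, 3.80 for the epiblast, 2.32 for the neural and 1.20 for the fibroblast genes, against 2.72 for the 8 genes. Upstream steps were at 3 or more for Msl1 at 4 of the 16 naive, 4 of the 8 epiblast, 7 of the 12 neural and 1 of the 10 fibroblast genes, against 2 of the 8 genes and 22.5% of all genes. For Nsl1 they were at 1, 0, 2 and 1 genes of these lists, against 3 of the 8 genes and 16.3% of all genes. RNA was not measured in these libraries, so the labelled cell type could not be checked against expression.

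The gene most like each of the 8 was looked for over the log2 ratios of both antibodies in 4 stretches: upstream, at the TSS, 500 to 2000 bases downstream and the rest of the gene. The nearest were Plk2 for Pou5f1, at a root mean square distance of 0.284 on the log2 scale, Sf1 for Nanog at 0.203, Zfp706 for Sall4 at 0.159 and Fam86 for Lin28a at 0.119. They were Kctd8 for Utf1 at 0.107, over 6 of the 8 values, Ckap4 for Dppa4 at 0.159, Lor for Dppa2 at 0.165 and Fzd7 for Trim28 at 0.330. Among the 8 genes themselves Dppa2 and Sall4 were nearest to each other, at 0.313, and Pou5f1 stood farthest from the rest, with Trim28 as the nearest at 0.705. These distances are not per unique base. For Pou5f1 only 65.2% of the positions behind the local level were unique for a Msl1 read and 60.0% for a Nsl1 read. This raises its ratios, and its distances and nearest genes were not computed per unique base. For the genes with 8 values, 18733 genes were compared, and for Utf1 22225. In each stretch 1 read was added to the count and to the reads that the local level gave. Each nearest gene is the lowest of many distances, and counting error was not taken into account, so these names are a description only.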

How the data were processed

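In all 2 libraries of single-end reads were used, 1 for Msl1 and 1 for Nsl1. Per the labels the authors used CASAVA 1.8.2 and Bowtie 0.12.7 with mm9. What they deposited lists each aligned read by its place and strand. The deposited alignment score was the same on every line and was not used. Repeated positions had not been removed. The Input was not used here.

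From the positions 1 read was kept per position and strand, and moved to the middle of its fragment, 206 bases long for Msl1 and 129 for Nsl1 by the strand cross-correlation of each library. This kept 81.7% of the nuclear reads for Msl1 and 95.4% for Nsl1. Counts used numpy 2.4.6 and intervals scipy 1.17.1 under Python 3.11.15, with tables in pandas 2.3.3 and plots in matplotlib 3.10.9. The TSS was that of the protein-coding transcript with the longest coding sequence in a GENCODE annotation of mm9, and coordinates count from 1. Ratios of 3, and of 2 between libraries, were taken as called. Intervals are Poisson, or conditional binomial for a ratio of 2 counts, and leave out the error of the local level, which rests on 1209 to 2537 reads. The code was tested on simulated data.

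The genes named are the 8 of the list, genes whose TSS or annotation lies in their regions, and the nearest gene to each. The members, lists and motifs were chosen with earlier results of these data known. The list genes were matched by symbol, identifier or the synonyms of RefSeq (GRCm38.p6, names only), and Sox1 was not matched. The Nanog gene body amplicon was left out because its reverse primer had no exact match in mm9. Alternatives changed the level, fragments, TSSs, windows, steps, folds and repeated reads, or counted per base at which a read is unique, with steps of mostly non-unique bases set to 0. Another promoter sequence, with its motif match, is not reported here, and the counts of matches leave it out.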

Additional observations from a re-analysis of the deposited data

How the results depend on the processing

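No paired analysis was possible because each antibody has 1 library, and for the same reason none could be left out. No ratio of 3 or more at a TSS fell under 1. The Nsl1 ratio at the TSS went from above to under 1 at Pou5f1, to 0.944 per unique base, and at Dppa4, to 0.40 within 250 bases. Of the counts over the 8 genes, 66 of the recomputed values stayed within 1.5 times the value given and 22 did not. The alternatives were run on the 8 genes only, so their counts have no share of all genes beside them and do not set the 8 genes apart. The window of 250 bases is the exception, with its shares given above. The Msl1 count from 500 to 2000 bases lay between 6 and 8 and that of gene body steps between 6 and 8 under the alternatives run. The lower counts lacked Lin28a, Dppa4 or both, except that with steps to the gene end only Utf1 had no step and so no value. The Nsl1 count from 500 to 2000 bases was 0 under each of them.

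With the genome level as divisor 7 genes passed for Msl1 at the TSS, 2 for Nsl1 at the TSS, 5 for Msl1 and 5 for Nsl1 upstream, and 5 for Nsl1 in gene body steps. At a fold of 2 these were 8, 3, 6, 5 and 6. Upstream steps were at 0 genes for Msl1 and 1 for Nsl1 with a level from 5 to 50 kb, at 0 and 0 per unique base, at 0 and 1 in steps of 1000 bases, and at 0 and 0 at a fold of 4. At the TSS, 2 genes passed for Nsl1 in a window of 250 bases and 5 for Msl1 in one of 1000 bases. Within 500 bases 3 genes had at least 2 times as many Msl1 as Nsl1 reads. With each library over its own local level it was 4, with Dppa4 in and Nanog and Utf1 out. With steps to the gene end only, 0 genes passed for Nsl1. The causes were not tested, except that the last setting leaves out the steps at Dhdds and Chmp2a by construction. Windows at the TSS held 13 to 62 reads, and upstream steps at most 22, which limits what can be told apart there.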
